A study of Homo sapiens with 8 samples.

Results

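Transcripts of 10 secreted matrix proteins that are neither collagens nor laminins were followed in H9 cells, a widely used line of hESCs (human embryonic stem cells). These were FN1 and VTN, SPARC and THBS1, FBN1 and FBN2, NID1 and NID2, and HSPG2 and AGRN, and they were taken by gene symbol from 20344 genes listed in at least 1 of the deposited tables. All 10 were listed after crowding (19472 genes), and 9 after ETV4 KD (19551 genes), where VTN was not analysed. The crowding experiment compared 2 libraries labelled small (low density) with 2 labelled crowded (high density), in which cells grew on small drops of Matrigel. The ETV4 KD experiment compared 2 libraries labelled Ctrl (shControl) with 2 labelled ETV4 KD (shETV4). All 8 libraries came from the same cell line, grown on Matrigel, in mTeSR1 or TeSR-E8 medium. Which hairpin was sequenced and whether replicates came from separate cultures are not given in the sources used here, so p-values measure the spread between these libraries, which may be technical.

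Epithelial cells rest on a matrix that they partly make themselves. Fibronectin (FN1) and vitronectin (VTN) carry the RGD motif that integrins bind, and cells pull soluble fibronectin into fibrils. The matricellular proteins SPARC and thrombospondin 1 (THBS1) do little to hold the matrix up and instead tune how cells attach to it. Fibrillins (FBN1, FBN2) polymerize into microfibrils that store latent TGF-β and BMP proteins. Nidogens (NID1, NID2) tie the laminin network of a basement membrane to its collagen IV network, where perlecan (HSPG2) and agrin (AGRN) carry heparan sulphate chains that bind growth factors such as FGFs. Matrigel is itself an extract of basement membrane and supplies laminin, collagen IV and nidogen as protein, which RNA-seq does not see.

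FPKM, read fragments scaled by transcript length and by mapped reads, allows levels to be compared between genes. At low density SPARC was the most abundant member by far, followed by AGRN, FN1, HSPG2, NID1, THBS1, FBN2, FBN1, NID2 and VTN, and no neighbours in this order overlapped in FPKM. At high density NID1 and HSPG2 overlapped each other, and NID2 stood above FBN1. Among the shControl libraries AGRN and FN1 overlapped. Among the shETV4 libraries NID1 and AGRN both stood above FN1, and NID2 and FBN2 overlapped. The tables were normalized separately, so orders were read only within each of them.

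**Figure D1:**
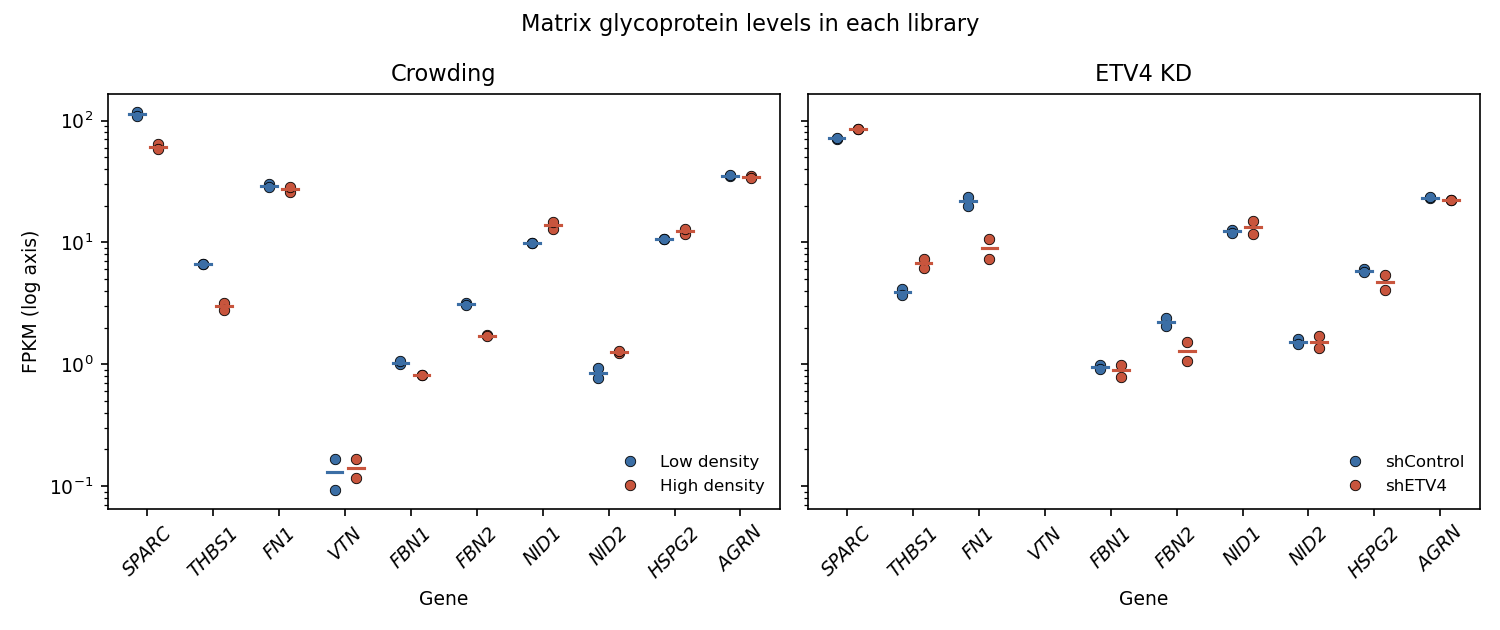
FPKM of each matrix glycoprotein gene (log axis) in the 4 libraries of crowding (left) and of ETV4 KD (right), with a point for each library and a bar at the mean of each group. SPARC dropped from above 109 FPKM at low density to below 64 at high density, FN1 dropped to 10.6 and 7.36 FPKM with shETV4, and VTN was plotted only for crowding.

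The promoters of FN1, SPARC, THBS1 and FBN2 are shown because these genes were called as changed in at least 1 comparison, and because ETV4 is an ETS factor, a family that recognises GGAA. NID2, the other gene that was called, is left out because its call held in only 9 of 14 alternatives. The RefSeq promoter table (GRCh38.p14) matched 9 of the 10 members, AGRN being the other, and each upstream window of 250 bases was found once in GRCh37, whose coordinates are given here. Bases that GENCODE annotates as exon were cut from the printed sequences but were searched. Capitals mark matches, on either strand, to CCGGAA (a longer ETS core), ACCGGAAGT (a full ETS site), TGACGTCA (the cyclic AMP response element), GGAATG (the TEAD motif), CCAAT (the CCAAT box), the TATA box written as TATAAA, the AP-1 motif (TGA, then any base, then TCA) or the CArG box. The short core GGAA is part of CCGGAA, ACCGGAAGT and GGAATG and was counted without capitals.
FN1, chr2:216300797-216301041, minus strand: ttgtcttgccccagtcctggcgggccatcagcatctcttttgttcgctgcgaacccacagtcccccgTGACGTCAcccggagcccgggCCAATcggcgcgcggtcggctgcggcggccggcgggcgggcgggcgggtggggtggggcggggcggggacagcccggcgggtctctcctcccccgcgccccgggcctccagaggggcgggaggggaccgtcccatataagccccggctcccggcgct
SPARC, chr5:151066537-151066726, minus strand: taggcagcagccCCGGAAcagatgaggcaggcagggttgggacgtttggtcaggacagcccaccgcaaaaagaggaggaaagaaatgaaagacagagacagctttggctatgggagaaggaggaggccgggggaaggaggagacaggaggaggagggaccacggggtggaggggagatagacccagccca
THBS1, chr15:39873030-39873279, plus strand: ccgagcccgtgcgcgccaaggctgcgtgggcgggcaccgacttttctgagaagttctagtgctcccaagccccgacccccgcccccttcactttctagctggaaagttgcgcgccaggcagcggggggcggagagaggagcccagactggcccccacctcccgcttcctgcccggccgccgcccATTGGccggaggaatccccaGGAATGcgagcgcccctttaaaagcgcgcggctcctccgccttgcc
FBN2, chr5:127873939-127874188, minus strand: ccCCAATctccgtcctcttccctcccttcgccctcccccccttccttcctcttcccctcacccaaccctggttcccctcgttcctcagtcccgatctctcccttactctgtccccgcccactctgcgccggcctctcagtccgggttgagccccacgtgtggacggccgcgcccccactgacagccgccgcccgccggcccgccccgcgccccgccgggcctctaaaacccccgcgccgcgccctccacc
In FN1 the capitals are a cyclic AMP response element from -183 to -176 before the RefSeq start, which 1.65% of 35116 promoters hold, and a CCAAT box at -162. GGAA was absent from the FN1 window (0 matches), whereas 92.7% of all promoters hold it at least once. SPARC held CCGGAA from -238 to -233 (14.5% of promoters) and 5 GGAA cores, of which 2 lie, with a GGAATG match, in the bases not printed. In THBS1 the capitals are an inverted CCAAT box at -66 and GGAATG from -46 to -41 (11.9% of promoters). FBN2 held a CCAAT box at -248 and 6 GGAA cores, all on the opposite strand. Its window lies before the RefSeq start but inside the GENCODE span of FBN2 (chr5:127593601-127994878), where that span overlaps the gene SLC27A6. The windows of VTN and FBN1, which are not printed, also lie inside the GENCODE spans of these genes. Of the 9 windows, 4 held GGAATG (VTN, SPARC, THBS1 and FBN1) and 6 held CCAAT, which is in 32% of promoters. ACCGGAAGT, the AP-1 motif, the TATA box and the CArG box were in 0 of the 9 windows, against 0.814%, 6.57%, 10.7% and 1.16% of all promoters. The GC content was 76.4% for FN1, 59.2% for SPARC, 69.6% for THBS1 and 72.8% for FBN2, against a median of 58.0%. These are matches of letters, and binding of any factor was not measured.

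To ask how crowding bears on these genes, counts at high density were compared with those at low density by edgeR's quasi-likelihood test. A DEG had to pass both an adjusted p of 0.05 (Benjamini-Hochberg over 17672 genes) and a log2 fold change of 0.5 in either direction. Crowding lowered SPARC, THBS1 and FBN2, by 1.88-fold to 2.33-fold, and raised NID2 by 1.42-fold, a value close to the threshold. FN1, HSPG2 and AGRN were not DEGs. Thus 4 of the 10 members were called, against 16.1% of all genes tested. Of all genes, 5.47% were called lower and 10.7% higher, against 3 and 1 of the 10 members. Libraries of the densities did not overlap in FPKM for 7 of the 10 members, close to the 70.2% found over all genes.

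FN1 (chr2:216225163-216300796 of GRCh37, minus strand) had 30.1 and 28.4 FPKM at low density and 25.9 and 28.7 FPKM at high density. The groups overlapped, since the second crowded library lay between the low-density ones. The means were 29.2 ± 1.24 and 27.3 ± 1.96 FPKM (SD, n = 2), and the log2 fold change of -0.15 (SE 0.06) missed the threshold (adjusted p = 0.0512, edgeR). VTN (chr17:26694305-26700110, minus strand), the adhesive protein of blood plasma that is also used to coat dishes for hESCs, was barely detected. It had 9 and 19 reads at low density and 17 and 14 at high density, or 0.0932, 0.166, 0.165 and 0.117 FPKM, with groups that overlapped. Its log2 fold change of 0.03 had an SE of 0.50 (adjusted p = 0.973), so a change was not detectable at this depth. VTN also lies wholly within the span of SARM1 on the opposite strand, whose mean FPKM of 1.13 and 0.752 was higher. The kit marked strand, but whether counting used it is not stated, so these VTN reads are uncertain.

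SPARC (chr5:151040657-151066536, minus strand), which binds collagen and loosens cell attachment, had 117 and 110 FPKM at low density and 63.9 and 58.5 FPKM at high density. Both crowded libraries were far below both low-density ones. The mean fell from 113 ± 4.91 to 61.2 ± 3.81 FPKM (SD, n = 2). This is 1.93-fold lower (log2 fold change -0.95, SE 0.06, adjusted p = 1.22e-10). Ranked by FPKM, SPARC was the 452nd and 484th most abundant gene of the low-density libraries and the 871st and 929th of the high-density libraries. THBS1 (chr15:39873280-39891667, plus strand), a trimeric protein that binds CD47 and can activate latent TGF-β, had 6.67 and 6.71 FPKM at low density. It had 3.18 and 2.81 FPKM at high density, again with a wide gap between the groups. This was the largest change among the members, 2.33-fold lower (log2 fold change -1.22, SE 0.07, adjusted p = 6.60e-11). The FPKM ratio of SPARC to THBS1 moved less, from 17.5 and 16.4 to 20.1 and 20.8. THBS1 overlaps FSIP1 on the other strand, which was low, with a mean of 0.256 and 0.307 FPKM. Whether a group held fewer cells of some type or less RNA per cell cannot be told apart in bulk samples.

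The fibrillins differed in level and in size of change. FBN1 (chr15:48700510-48937918, minus strand), the fibrillin mutated in Marfan syndrome, had 1.01 and 1.06 FPKM at low density and 0.815 and 0.813 FPKM at high density. The groups did not overlap, and the log2 fold change of -0.40 (SE 0.10, adjusted p = 0.00348) stayed under the threshold on size. FBN2 (chr5:127593601-127994878, minus strand), the fibrillin known mainly from embryonic tissue, had 3.15 and 3.07 FPKM at low density and 1.73 and 1.71 FPKM at high density. Here the gap was much wider than the spread within either group, and FBN2 fell with a log2 fold change of -0.91 (SE 0.07, adjusted p = 6.04e-09). FBN2 stayed the more abundant of the pair, with an FPKM ratio to FBN1 of 3.13 and 2.91 at low density and 2.12 and 2.11 at high density. FBN2 shares part of its span with SLC27A6 on the opposite strand, which had a mean of 1.40 and 1.51 FPKM and a log2 fold change of 0.05 (SE 0.16).

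Nidogen transcripts went the other way. NID1 (chr1:236139130-236228409, minus strand) had 9.83 and 9.85 FPKM at low density and 13.0 and 14.8 FPKM at high density. The crowded libraries were both higher, and the log2 fold change was 0.44 (SE 0.06, adjusted p = 1.68e-05), under the threshold on size except without the first high-density library (0.53). NID2 (chr14:52471527-52535777, minus strand), the less abundant nidogen, had 0.939 and 0.767 FPKM at low density and 1.23 and 1.28 FPKM at high density. It rose with a log2 fold change of 0.50 (SE 0.15, adjusted p = 0.0134). Without the second low-density library the value was 0.36 (adjusted p = 0.200), and without the second high-density library 0.48 (adjusted p = 0.0228), so that NID2 was then no DEG. NID2 overlaps RTRAF on the opposite strand, a gene with a far higher mean of 24.3 and 22.5 FPKM, which makes the NID2 counts uncertain. NID1 exceeded NID2 by 10.5 and 12.8 times at low density and by 10.5 and 11.6 times at high density.

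The heparan sulphate proteoglycans were steadier. HSPG2 (chr1:22148737-22263803, minus strand) had 10.6 and 10.7 FPKM at low density and 11.6 and 13.0 FPKM at high density. The groups did not overlap, with a log2 fold change of 0.15 (SE 0.06, adjusted p = 0.0592). AGRN (chr1:955500-991498, plus strand), known for gathering acetylcholine receptors at the neuromuscular junction, had 34.9 and 36.0 FPKM at low density and 34.9 and 33.9 FPKM at high density. Its groups overlapped, and the log2 fold change of -0.10 (SE 0.05) missed the threshold (adjusted p = 0.162).

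**Figure D2:**
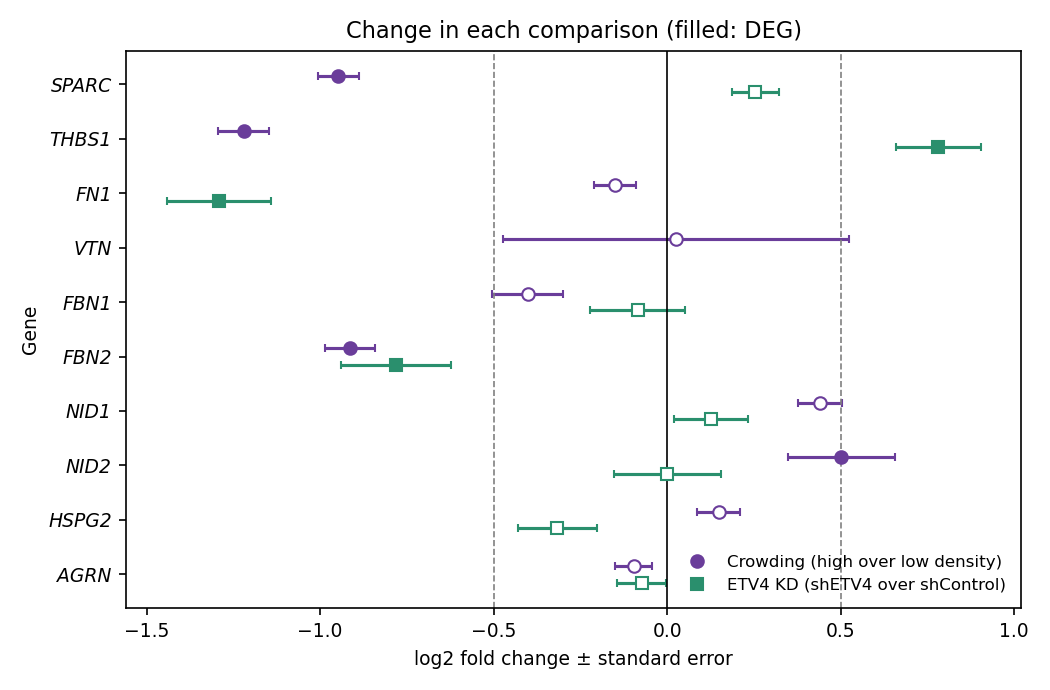
Log2 fold change ± SE of each member after crowding (circles, high over low density) and after ETV4 KD (squares, shETV4 over shControl), filled where the gene was a DEG, with dashed lines at the threshold of 0.5 either way. SPARC and THBS1 lie left of 0 after crowding and right of 0 after ETV4 KD, FN1 lies past the threshold only after ETV4 KD, and FBN2 lies left in both.

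The same genes were then compared between shControl and shETV4 libraries, to ask what lower ETV4 leaves of this set. ETV4 itself fell from 92.9 ± 3.06 to 43.3 ± 3.32 FPKM (SD, n = 2), as the labels of these libraries require (log2 fold change -1.15, SE 0.07, adjusted p = 1.60e-04). In crowding ETV4 had a log2 fold change of -0.49 (SE 0.06, adjusted p = 9.42e-07). Both values are of RNA. The paper reported less ETV4 protein in crowded hESCs and traced it to protein stability, which RNA-seq does not see. ETV4 KD lowered FN1 and FBN2 and raised THBS1. These 3 DEGs among 9 members compare with 13.0% of the 17879 genes tested, or 7.10% lower and 5.88% higher. The groups did not overlap for 6 of the 9 members, against 63.3% of all genes.

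FN1 had 23.6 and 19.9 FPKM with shControl and 10.6 and 7.36 FPKM with shETV4. Both knockdown libraries lay well below both controls, although they also differed from each other. FN1 fell 2.45-fold (log2 fold change -1.29, SE 0.15, adjusted p = 0.00164). In the fits that left out 1 library each its log2 fold change was between -1.55 and -1.07. Its rank by FPKM went from 2659 and 3171 to 5474 and 6838. The 5 genes whose log2 CPM pattern over all 8 libraries was most like that of FN1, among 12474 genes, were SEMA6A, ARHGEF35-AS1, PDLIM5, SFXN2 and ZFR. Their root mean square difference from FN1 was 0.0700 to 0.126 log2 units.

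SPARC had 70.7 and 72.1 FPKM with shControl and 85.1 and 84.7 FPKM with shETV4. Replicates were close together and the groups apart, but the log2 fold change of 0.25 (SE 0.07, adjusted p = 0.0327) was under the threshold on size. THBS1 had 4.15 and 3.71 FPKM with shControl and 6.14 and 7.34 FPKM with shETV4. Each knockdown library was above each control, and THBS1 rose 1.72-fold (log2 fold change 0.78, SE 0.12, adjusted p = 0.00470). The ratio of SPARC to THBS1 was 17.0 and 19.4 in the controls and 13.9 and 11.5 after ETV4 KD. FSIP1, on the strand opposite THBS1, stayed low, with a mean of 0.270 and 0.387 FPKM.

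FBN2 had 2.39 and 2.06 FPKM with shControl and 1.52 and 1.06 FPKM with shETV4. The knockdown libraries were lower without overlap, and FBN2 fell with a log2 fold change of -0.78 (SE 0.16, adjusted p = 0.0126). With limma on log2(FPKM + 1) its change was -0.50 and on all genes without an FPKM minimum its adjusted p was 0.0939, so that FBN2 was then no DEG. FBN1 had 0.982 and 0.906 FPKM with shControl and 0.990 and 0.790 FPKM with shETV4, which overlapped (log2 fold change -0.09, SE 0.14, adjusted p = 0.696). FBN3, not a member, went from 7.23 and 7.31 to 5.49 and 4.66 FPKM and was a DEG (log2 fold change -0.52, SE 0.09, adjusted p = 0.00676). The FPKM ratio of FBN2 to FBN1 was 2.43 and 2.27 in the controls and 1.54 and 1.35 after ETV4 KD, lower as it also was in crowded hESCs.

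The remaining basement membrane members had no DEG after ETV4 KD. NID1 had 12.6 and 11.96 FPKM with shControl and 15.1 and 11.7 FPKM with shETV4, and NID2 had 1.598 and 1.45 against 1.70 and 1.35. In both nidogens the first knockdown library was above the controls and the second below them. The log2 fold changes were 0.13 for NID1 (SE 0.11, adjusted p = 0.428) and 0.00 for NID2 (SE 0.15, adjusted p = 0.9998). HSPG2 had 6.07 and 5.68 FPKM with shControl and 5.37 and 4.07 FPKM with shETV4. The knockdown libraries were lower, with a log2 fold change of -0.32 (SE 0.11) that missed the threshold (adjusted p = 0.0814). With a replicate block in edgeR the adjusted p of HSPG2 was 2.82e-04, and with the DESeq2 Wald test 0.0390. The change stayed under the threshold on size in both. AGRN had 23.0 and 23.6 FPKM against 22.1 and 22.1, a narrow gap (log2 fold change -0.07, SE 0.07, adjusted p = 0.488).

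Whether a member responded differently to crowding and to ETV4 KD was tested as the difference of its log2 fold changes, over all 8 libraries, in which the experiments share no control. An adjusted p below 0.05 was reached by 4 of the 9 members, against 38.5% of the 17790 genes tested. THBS1 differed most, with a difference (crowding minus ETV4 KD) of -2.01 (SE 0.15, adjusted p = 2.93e-06), since it fell in crowded hESCs and rose after ETV4 KD. SPARC differed by -1.21 (SE 0.09, adjusted p = 3.25e-06) and FN1 by 1.13 (SE 0.19, adjusted p = 0.00132). HSPG2 differed by 0.46 (SE 0.14, adjusted p = 0.0179), but lost this call in 4 of the 8 fits without 1 library. These were the fits without either low-density library (adjusted p = 0.0692 and 0.0616), the second high-density library (0.0879) or the first shControl library (0.0730). For FBN2 the difference was -0.14 (SE 0.18, adjusted p = 0.565) and without the second shETV4 library -0.35 (adjusted p = 0.0471). Differences of FBN1 (-0.32, SE 0.16), NID1 (0.31, SE 0.13), NID2 (0.50, SE 0.21) and AGRN (-0.03, SE 0.08) missed the threshold, with adjusted p from 0.0853 to 0.807. Without the first shETV4 library NID1 (0.47, adjusted p = 0.00184) and NID2 (0.64, adjusted p = 0.0271) passed it, as FBN1 did without the second (-0.45, adjusted p = 0.0379).

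The make-up of these transcripts moved with the most abundant ones. Summed over the members, FPKM was 214 and 207 at low density and 156 and 156 at high density. SPARC accounted for 54.6% and 53.2% of the sum at low density and for 40.8% and 37.6% at high density. After ETV4 KD the sum was 149 and 141 FPKM against 145 and 141 in the controls, so the ranges overlapped. Within it the FN1 share went from 16.2% and 14.1% to 7.13% and 5.24%, and the SPARC share from 48.7% and 51.0% to 57.3% and 60.3%. Shares of a fixed total cannot move independently.

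**Figure D3:**
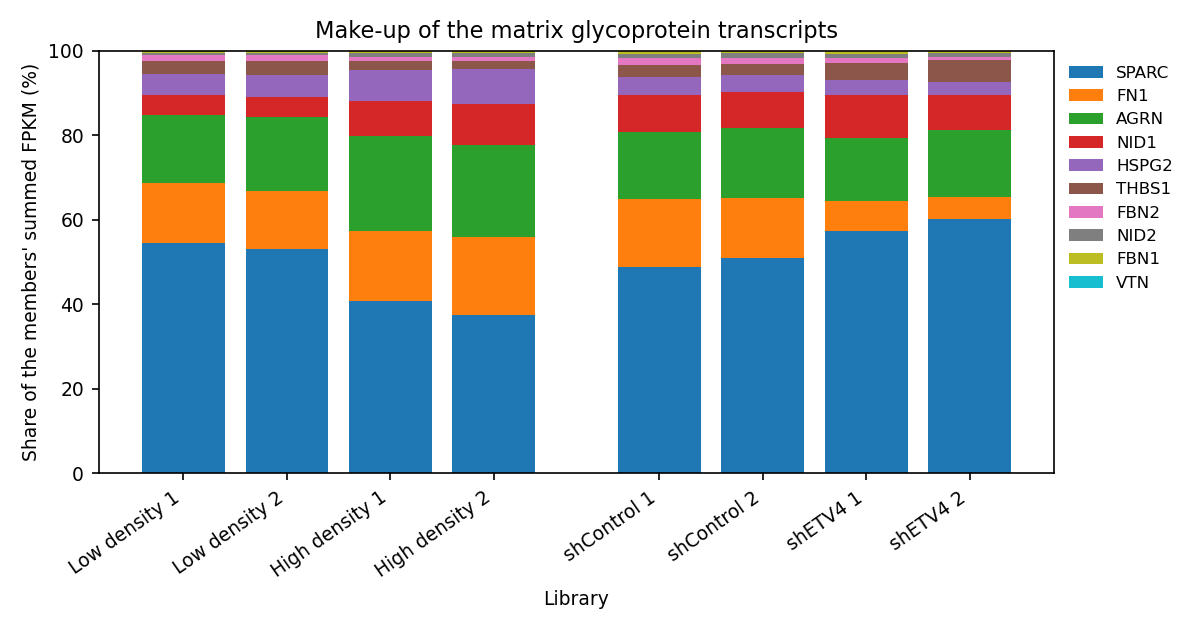
Share of each gene in the summed FPKM of the matrix glycoproteins (percent, stacked) for each of the 8 libraries. The SPARC share is 54.6% and 53.2% at low density and 40.8% and 37.6% at high density, and the FN1 share is 7.13% and 5.24% with shETV4 against 16.2% and 14.1% with shControl.

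Genes that act beside these proteins were counted from lists of other matrix glycoproteins, proteoglycans, receptors, basement membrane chains (of laminins and collagens IV, XV and XVIII), and enzymes and chaperones of matrix assembly. DEGs were 33.3% of the other glycoproteins tested, 42.9% of the proteoglycans, 31.3% of the receptors, 26.3% of the basement membrane chains and 16.7% of the assembly enzymes after crowding, beside 16.1% of all genes. After ETV4 KD the shares were 33.3%, 37.5%, 27.8%, 31.6% and 20.8% in the same order, beside 13.0% of all genes. The members' medians were -0.12 after crowding and -0.07 after ETV4 KD, beside 0.00 for all genes in each comparison. Of 72 other glycoproteins tested, 15 rose and 9 fell after crowding (median 0.03), and 5 rose and 19 fell after ETV4 KD (median -0.15). The falls included SPP1 (osteopontin, an RGD protein, log2 fold change -2.05) and the matricellular CCN1 (-1.32) and CCN2 (-1.30) in crowded hESCs. After ETV4 KD SPP1 (0.80) and CCN2 (0.54) rose, as THBS1 did, while CCN1 was at 0.36 (adjusted p = 0.118). The difference between experiments was tested for SPP1 (-2.86, adjusted p = 5.80e-07), CCN1 (-1.69, adjusted p = 1.47e-04) and CCN2 (-1.84, adjusted p = 2.59e-06). Among those with a mean FPKM of at least 1, the largest rise in crowding was PAPLN (papilin, 2.70), followed by EMID1 (1.19), the latent TGF-β binding protein LTBP4 (0.99) and the fibulin EFEMP2 (0.82). ETV4 KD lowered SPON1 (-1.16), EMILIN3 (-1.07) and tenascin C (TNC, -1.02), and raised TNFAIP6 (1.36).

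Among the proteoglycans 5 of 14 rose and 1 fell after crowding (median 0.32). The 5 that rose were scarce, with low-density means of at most 0.965 FPKM (BCAN), while HAPLN4, which fell, had 3.79. VCAN, with means of 82.6 and 86.7 FPKM, was at 0.01. With limma on log2(FPKM + 1) 0 proteoglycans were called after crowding. After ETV4 KD 1 of 16 rose and 5 fell (median -0.09), with BGN (biglycan, -1.43) and SPOCK1 (-1.13) as examples. Receptors that bind these proteins had 1 rise and 4 falls of 16 after crowding (median -0.23), led by ITGB5 (-1.35), a chain of a vitronectin receptor. After ETV4 KD 2 of 18 receptors rose and 3 fell (median -0.22), among them ITGA3 (0.51), ITGA2 (-1.01) and CD47 (-0.76), a receptor of THBS1. CD36, another receptor of THBS1 that was named after its value was seen, rose from a low level, 0.109 and 0.0693 FPKM with shControl, to 0.243 and 0.476 FPKM with shETV4 (log2 fold change 1.85, adjusted p = 0.00752). Basement membrane chains, which include the collagen IV and laminin partners of nidogens, had 1 rise and 4 falls of 19 after crowding (median -0.10), with LAMB1 at 0.51. After ETV4 KD 2 rose and 4 fell (median -0.01), with COL4A1 at -1.27 and COL18A1 at 0.57. Of 24 assembly enzymes, 2 rose and 2 fell after crowding (median -0.03), and 1 rose and 4 fell after ETV4 KD (median -0.13), with LOXL3 at 0.81 and PLOD1 at -0.74. Calls ranged from 2 to 9 basement membrane chains and from 3 to 7 proteoglycans after ETV4 KD in fits without 1 library. The lowest were the fits without the second shETV4 library (2 chains and 3 proteoglycans), without the first shControl library (3 chains) and without the second (3 proteoglycans). Other glycoproteins called after ETV4 KD went from 24 to 15 without the second shETV4 library. After crowding, chains went from 5 to 3 without the second low-density library, and enzymes from 4 to 2 without that library or the second high-density one.

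**Figure D4:**
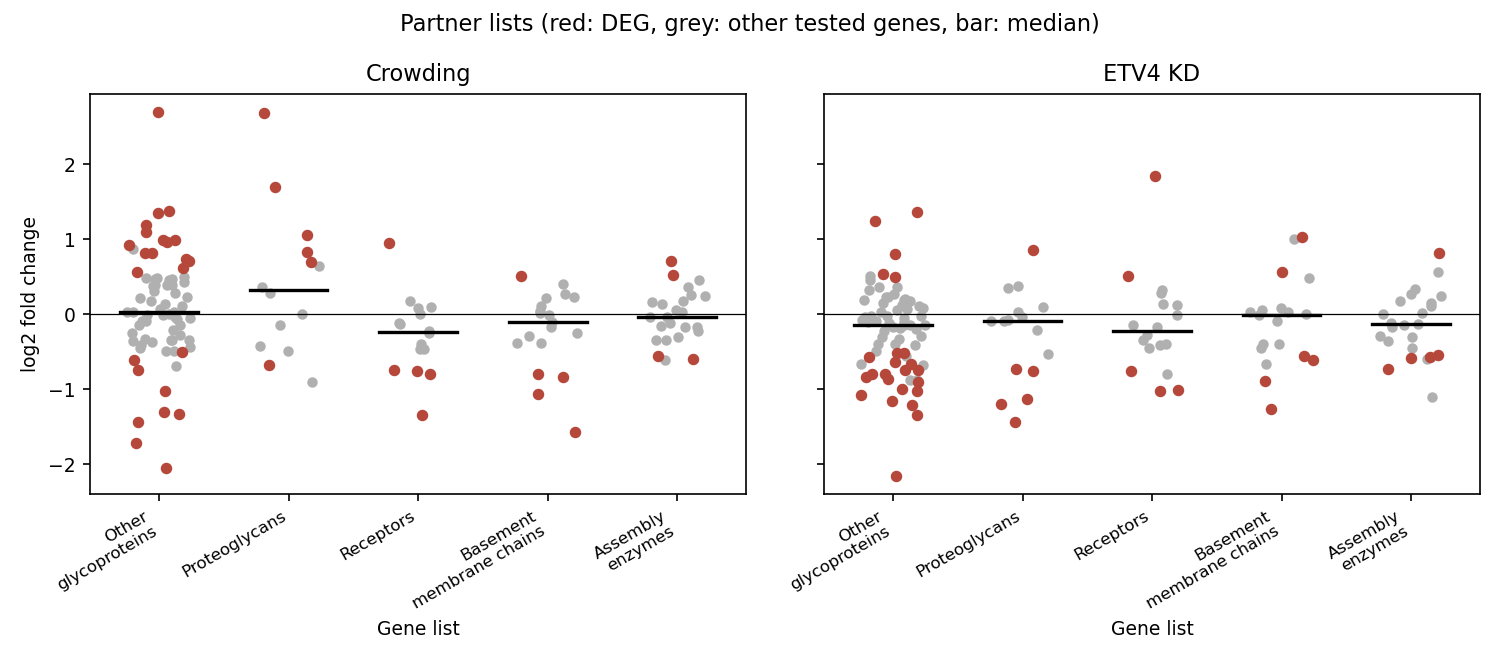
Log2 fold changes of the genes of 5 partner lists after crowding (left) and ETV4 KD (right), with a point per tested gene (red for DEGs, grey for others) and a bar at the list's median. The medians lie between -0.23 and 0.32, and 19 of 72 other glycoproteins fell after ETV4 KD against 9 of 72 after crowding.

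Libraries held 50359703 to 62410168 reads on genes, and replicates differed by more than sampling noise, most of all with shETV4 (chi-square per degree of freedom 23.0, against 5.78 to 12.01 in the other groups). All 12 hESC markers were above 10 FPKM on average in both tables, with POU5F1 highest. After crowding 0 of the 12 were DEGs, although 7 had an adjusted p below 0.05, and after ETV4 KD 3 were DEGs: DNMT3B (log2 fold change -0.82), TDGF1 (-0.82) and LIN28A (0.51). AFP, a marker of extraembryonic endoderm, went from 1.21 and 1.43 FPKM at low density to 0.415 and 0.333 at high density. It went from 0.509 and 0.526 FPKM with shControl to 1.01 and 1.25 with shETV4. Of the extraembryonic endoderm markers tested, AFP was the only DEG of 3 after crowding. SOX7 was at a log2 fold change of 0.09 and APOA1 at -0.98 (adjusted p = 0.807 and 0.269, edgeR). AFP and GATA4 were the DEGs of 4 after ETV4 KD. The whole list, 4 of 8 after crowding, summed to 1.76 and 1.92 FPKM at low density and 0.965 and 0.834 at high density, and the 5 of 8 listed after ETV4 KD to 1.01 and 1.28 with shControl and 1.93 and 2.21 with shETV4. TTR, APOA2 and FOXA1 were listed in neither table. Genes listed as mesenchymal markers summed to 124 and 127 FPKM at low density and 91.0 and 92.5 at high density. Their sums were 174 and 179 with shControl and 138 and 129 with shETV4. Of those tested, 2 of 7 fell after crowding, and 3 of 8 fell and 1 rose (COL1A1) after ETV4 KD. THY1 was the highest of the 7 and 9 listed of 12 and made up the largest part of the mesenchymal sums. Its means were 79.2 FPKM at low and 53.3 at high density, and 118 with shControl and 67.5 with shETV4. The sums therefore mainly follow THY1, whereas COL1A1 went from a mean of 21.9 FPKM with shControl to 43.9 with shETV4. LUM, DCN and PRRX1 were listed in neither table. Of the 7 and 9 listed, 2 and 3 stayed below 1 FPKM in every library. A sum led by THY1 does not show whether mesenchymal cells were present. The part of either marker list in the members' changes was not tested. Marker sums of extraembryonic endoderm (0.834 to 2.21 FPKM), mesendoderm (1.22 to 2.53), neuroectoderm (0.285 to 0.446) and amnion or trophoblast (2.26 to 3.44) were low in every library.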

How the data were processed

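The 8 libraries, 2 in each of 4 groups, were made from poly-A RNA, and samples were grouped by their labels. The authors' methods and the submitters' processing notes name Trimmomatic for trimming, HISAT2 2.1.0 for mapping (build GRCh37) and StringTie 2.1.3b for transcript assembly. For each experiment the authors deposited a table of read counts per gene, without normalization, and of FPKM values per gene, normalized for transcript length and mapped reads. A gene is listed only with at least 1 read in each library of its table. Columns with the authors' fold changes and p-values, and 16 further columns of per-sample values, were not used.

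Counts of whole tables were tested with edgeR 4.0.16 (R 4.3.3; filterByExpr, TMM, robust quasi-likelihood test, Benjamini-Hochberg adjustment), without the replicate number as a block. The authors' methods name DESeq2, which was an alternative here (1.42.0). DEGs passed an adjusted p of 0.05 and a log2 fold change of 0.5 in either direction. To obtain the SE, the log2 fold change was divided by the root of its F statistic. Differences between experiments were tested on counts of both tables, joined over 18679 genes. Scripts were tested on simulated data. With 2 libraries against 2, a permutation test of a single gene cannot reach 0.05, so p-values rest on dispersions shared across genes. At 50359703 to 62410168 reads per library, counting error is small except for VTN.

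The members and lists were chosen with earlier results of these data known. All 10 members were named. Of each other list, the rule takes DEGs whose mean FPKM reaches 1, with at most 4 that rose most and 4 that fell most, and it adds the 5 genes most like FN1. Not every gene that the rule takes is reported here. FBN3 and VCAN lie outside it and were named after their values were seen. Gene positions come from GENCODE on GRCh37. Alternatives were DESeq2 size factors and Wald test, no filter on low counts, at least 10 counts in every library, a replicate block, limma 3.58.1 on log2(FPKM + 0.5) above a mean FPKM of 0.5, pseudocounts of 0.1 and 1, no FPKM minimum, leaving out each library, and, added after the data were seen, scaling by library totals only.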

Additional observations from a re-analysis of the deposited data

Results flagged for a closer look

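For 4 of the 9 members with values in both experiments, the log2 fold change differed between crowding and ETV4 KD (edgeR's quasi-likelihood test of the difference, crowding minus ETV4 KD). THBS1 differed by -2.01 (SE 0.15, adjusted p = 2.93e-06) and SPARC by -1.21 (SE 0.09, adjusted p = 3.25e-06), each with lower values in both crowded libraries and higher values in both shETV4 libraries. FN1 differed by 1.13 (SE 0.19, adjusted p = 0.00132), with a fall in ETV4 KD and overlapping groups in crowding. HSPG2 differed by 0.46 (SE 0.14, adjusted p = 0.0179), and the difference was 0.30 to 0.64 in fits without 1 library, of which 4 missed the threshold. Over all genes tested, 38.5% differed by this test.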

How the results depend on the processing

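The members called were 3 to 5 after crowding and 3 after ETV4 KD in fits that left out 1 library each, and the members that differed between experiments were 3 to 6. Over all genes, 2407 to 3408 were called after crowding and 1587 to 3390 after ETV4 KD in these fits, against 2851 and 2321 in the full fits. With limma, 1724 genes were called after crowding on log2(FPKM + 0.5), 1272 with a pseudocount of 1 and 1776 without an FPKM minimum; after ETV4 KD 1325 were called with a pseudocount of 1 and 1052 without a minimum. The limma fits also called fewer genes of the partner lists: after crowding 12 of the other glycoproteins with a pseudocount of 1 (24 in the full fit), and at most 2 proteoglycans (6), 2 chains (5) and 2 enzymes (4) in each of the 4 fits, and after ETV4 KD 9 to 16 other glycoproteins (24), at most 3 proteoglycans (6), 3 receptors (5) and 3 chains (6), and 3 to 4 enzymes (5). The causes were not tested.

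Direction turned only for changes that were not called in the full fits. VTN after crowding ranged from -0.29 to 0.50 without 1 library and had no value with at least 10 counts or in the limma fits with an FPKM minimum. After ETV4 KD, NID2 was at -0.0011335 with DESeq2 size factors, -0.00110943 with the Wald test, -0.00299016 with at least 10 counts, -0.00387588 with the replicate block, -0.00464056 with limma on log2(FPKM + 0.5), with or without a minimum, -0.00722686 and -0.0029784 with pseudocounts of 0.1 and 1, -0.042 with library totals only, and -0.15 to 0.13 without 1 library. Without 1 library NID1 ranged from -0.032 to 0.27 and FBN1 from -0.22 to 0.042 after ETV4 KD, and the differences between experiments from -0.35 to 0.11 for FBN2 and from -0.063 to 0.0034 for AGRN, which was 0.066 with library totals only. That scaling, chosen after the data were seen, also called the differences of NID1 (0.40, adjusted p = 0.0439) and NID2 (0.59, adjusted p = 0.0485).

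Over all genes tested, the deviations of libraries of the same number were barely correlated (-0.041 and 0.086), and the full fits did not take the replicate numbers as pairs. A correlation over all genes cannot decide this, since a shift shared by some genes would hardly move it. Among the members, however, FN1, FBN1, FBN2, NID1, NID2 and HSPG2 were higher in the first library than in the second in both groups of ETV4 KD. With the replicate block 4 and 3 members and 2874 and 2901 genes were called, against 2851 and 2321 genes without it. NID1 then differed between experiments (0.31, adjusted p = 0.0159). In ETV4 KD the block lowered the adjusted p (edgeR) of FN1 from 0.00164 to 9.61e-15 and of FBN2 from 0.0126 to 3.30e-07.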
